A study of Ictalurus punctatus and Ictalurus punctatus x Ictalurus furcatus with 18 samples.

Results

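A set of 300 abundant liver transcripts of catfish was examined whose level in hybrid fish lay at 0.4 to 0.6 of the level in both strains of channel catfish. The transcripts were selected on their measured levels in CPM (the raw count divided by all reads counted on transcripts in that library, times 1000000). The mean of the 6 hybrid libraries had to lie at 0.4 to 0.6 of the mean of the 6 Red River libraries and also of the mean of the 3 high-temperature Delta Select channel libraries. Of 144746 transcripts, 7412 met both conditions. After the 100 transcripts of highest mean CPM were set aside, 7408 remained, and the 300 with the highest Red River mean were taken. All 300 also passed the filter on low counts of the tests below. Since the ratio chose them, its size over both temperatures is a description and was not tested. The question left to the data was whether the ratio was alike at the low and the high temperature.

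Liver was sampled after 6 weeks in water that was warmed and cooled every day. The low regime cycled from 27 to 31 °C and the high regime from 32 to 36 °C. Red River channel catfish were represented by libraries L2, L6 and L9 at the low and H1, H4 and H7 at the high temperature, and Delta Select hybrid catfish by L1, L4 and L7 and by H2, H6 and H8. Delta Select channel catfish were represented by H3, H5 and H9 at the high and L3, L5 and L8 at the low temperature. A library is a pool of RNA from 3 fish of a tank, so the spread between libraries is a spread between tank pools, and differences between single fish cannot be seen. The labels give the hybrid as Ictalurus punctatus x Ictalurus furcatus, a cross of channel and blue catfish, and give no sex.

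A first-generation hybrid carries a chromosome set from each of its parent species, and the cross of channel with blue catfish is commonly farmed. The 2 copies of a gene can then differ in sequence and in how strongly each is transcribed, and liver, which makes most plasma proteins and much of the metabolic enzyme supply, is a tissue in which a few genes take a large share of all messenger RNA. The transcripts here come from an assembly whose identifiers give a k-mer size, the word length used in assembling, and a number. No identifier has an entry in the channel catfish gene table used here, so the genes, sequences and functions behind the 300 transcripts, and the markers of liver and of other cell types, were not determined here. In a bulk library, fewer cells of a type and less RNA per cell cannot be told apart, and transcripts of related sequence can share reads.

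Libraries held between 36242058 and 76146359 reads on transcripts, and a transcript of the set had a median of 1086.5 reads in the library where these medians were lowest (L7). The libraries labelled Delta Select channel at the low temperature differed from each other in level. L3 and L5 lay between the channel and the hybrid libraries, as described below. L8 lay nearer to the channel libraries. In plain CPM its summed level was still below that of every Red River and high-temperature Delta Select library. None of these libraries took part in choosing the 300 transcripts except through the mean that set aside the most abundant ones. Results of tests are given with and without L3 and L5.

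Together the 300 transcripts took about the same share of reads in Red River and high-temperature Delta Select channel libraries. In hybrids the share was much smaller. In Red River fish they held 3.43% of reads in L2, 3.24% in L6 and 3.13% in L9, and 2.99% in H1, 2.87% in H4 and 2.97% in H7. In hybrids they held 1.57% in L1, 1.61% in L4 and 1.41% in L7, and 1.53% in H2, 1.59% in H6 and 1.59% in H8. The high-temperature Delta Select channel libraries held 3.18% (H3), 3.13% (H5) and 3.08% (H9). Every hybrid library was below every channel catfish library of these groups. The low-temperature Delta Select channel libraries, not used for the ratio, held 2.00% (L3), 2.44% (L5) and 2.77% (L8). They lay above every hybrid library and below every Red River library. In sums of CPM, the hybrid mean was 0.468 of the Red River mean at the low temperature and 0.533 at the high temperature, where it was 0.501 of the Delta Select mean.

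**Figure D1:**
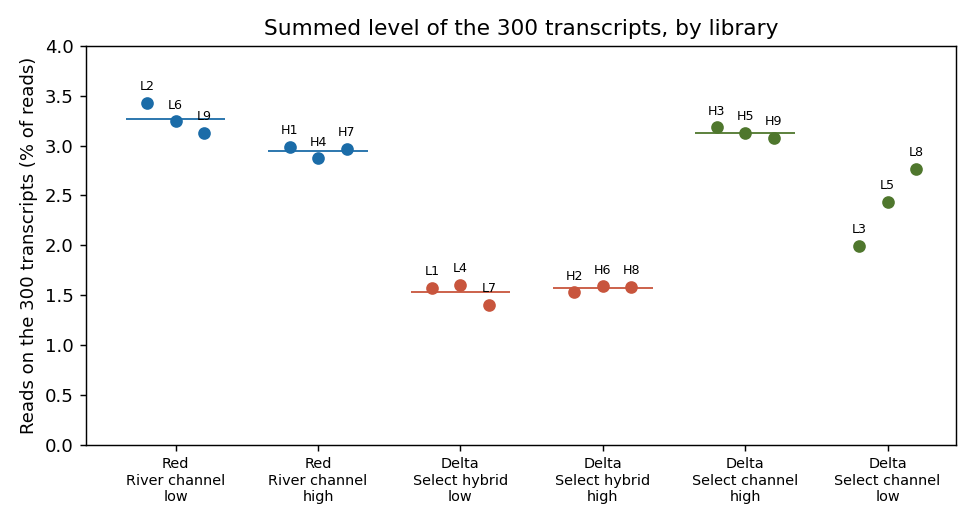
Share of reads on the 300 transcripts in each of the 18 libraries, in percent, by type and temperature; points are libraries and lines are group means (no line for low-temperature Delta Select channel fish). The hybrid libraries lie between 1.41% and 1.61%, the Red River libraries between 2.87% and 3.43%, and L3, L5 and L8 are spread out from 2.00% to 2.77%.

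Single transcripts followed the sum with more scatter. The Red River means ran from 29.0 to 689.5 CPM with a median of 66.0, and the hybrid means from 12.8 to 326.6 CPM with a median of 32.9. The ratio of hybrid to Red River had a median of 0.504, with quartiles of 0.465 and 0.548, and that of hybrid to high-temperature Delta Select a median of 0.494. The channel strains were alike in level by construction. Delta Select at the high temperature was above the Red River mean over both temperatures for 168 of the 300. Against the high-temperature Red River mean, the median ratio was 1.07 in H3, 1.07 in H5 and 1.06 in H9. At the limits, the last transcript taken had a Red River mean of 29.004 CPM and the next one 28.982. Inside the limits the ratios to Red River ended at 0.4015 and 0.5998, and the nearest transcripts outside had 0.3999 and 0.602. The ratios to Delta Select ended at 0.4008 and 0.5974, against 0.3967 and 0.6006 outside.

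The most abundant of the 300 was k70:1577531. Its level was 775, 810.5 and 606 CPM in Red River fish at the low temperature (L2, L6, L9) and 617, 670.0 and 659 CPM at the high temperature (H1, H4, H7). In hybrids it was 308, 312 and 275 CPM (L1, L4, L7) and 269.9, 312 and 257 CPM (H2, H6, H8). The hybrid libraries lay closely together, and all of them were far below all Red River libraries at both temperatures. Its level in high-temperature Delta Select fish was 721 ± 31.6 CPM (SD, n = 3). The next most abundant, k82:1065052, varied far more between tanks. It had 967, 494 and 566 CPM in L2, L6 and L9 and 638, 421 and 733 CPM in H1, H4 and H7. In hybrids it had 283, 363 and 407 CPM in L1, L4 and L7, and 165, 288 and 185 CPM in H2, H6 and H8. Its libraries did not overlap between the types either, but L7 and H4 nearly met, at 407 and 421 CPM. Of the 300, 220 had every hybrid library below every Red River library, where 9.54% of all 96799 tested transcripts did. Within the low temperature this held for 285 (background 26.7%) and within the high temperature for 276 (background 21.1%). The choice of the transcripts makes such separation likely, and nothing is read from it.

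The window from 0.4 to 0.6 did not mark a separate group of transcripts. At the same level, that is, with at least the Red River mean of the last transcript taken and outside the 100 most abundant, there were 4278 transcripts, and their median ratio of hybrid to Red River was 0.919. The number per step of 0.05 rose without a break from 27 at 0.25 to 0.3 to 258 at 0.75 to 0.8, through 92, 133, 143 and 164 in the steps of the window. No peak stood near 0.5. In all 532 of these transcripts (12.4%) met the condition on Red River, and 232 of them did not meet the condition on Delta Select. The level was set on the Red River mean, so transcripts below that level in Red River fish are left out, however high in hybrids. Of the 4278, 198 had a ratio of 2 or more.

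**Figure D2:**
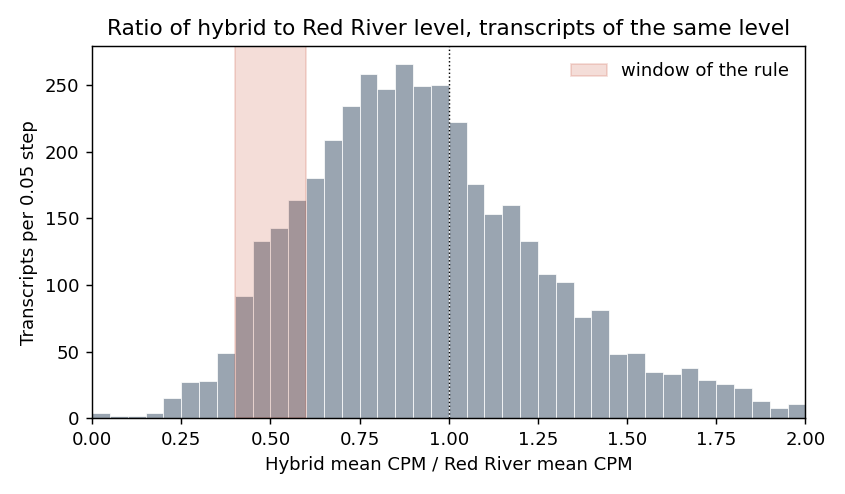
Number of transcripts per step of 0.05 in the ratio of hybrid to Red River mean CPM, among the 4278 transcripts of the same level; the shaded band is the window from 0.4 to 0.6, the dotted line marks equal levels, and 198 transcripts with a ratio of 2 or more lie outside the axis. Counts climb through the window toward a broad top between 0.75 and 1, with no separate peak at 0.5.

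At each temperature on its own, most of the 300 stayed near the chosen ratio. The rule makes this likely, since the same libraries chose the transcripts, and these counts are a description. Ratios in libraries that had not chosen the transcripts are given below. The ratio of hybrid to Red River had a median of 0.484 at the low temperature (quartiles 0.425 and 0.540, range 0.276 to 0.848) and of 0.538 at the high temperature (quartiles 0.485 and 0.589, range 0.257 to 0.807). It lay in the window for 218 transcripts at the low and for 230 at the high temperature, and at both for 171. At the low temperature 48 fell under 0.4 and 34 exceeded 0.6, and at the high temperature 12 and 58 did. Of these, 23 were outside at both temperatures. Among the 23, 20 went from under 0.4 at the low to over 0.6 at the high temperature and 3 the other way. Because the rule fixed the mean over both temperatures, a high ratio at either tends to come with a low one at the other. Every one of the 300 stayed under 1 at each temperature, which the rule makes likely, and nothing is read from it. In high-temperature libraries the ratio to Delta Select was in the window for 243, with a median of 0.506.

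**Figure D3:**
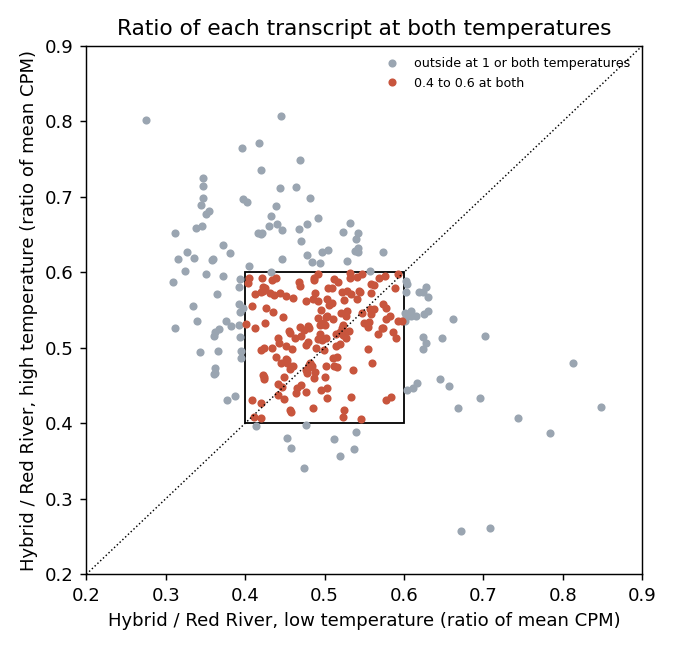
Ratio of hybrid to Red River mean CPM for each of the 300 transcripts, at the low temperature (x axis) and the high temperature (y axis); the square is the window from 0.4 to 0.6 at both, and the dotted line marks equal ratios. Inside the square lie 171 transcripts, and 20 lie to its upper left.

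No transcript of the set had a ratio that differed between the temperatures by the test. The interaction in edgeR (change with temperature in hybrids minus that in Red River fish) called 0 of the 300 at an adjusted p under 0.05, and also 0 of all 96799 transcripts tested (0%). At an unadjusted p under 0.05 there were 8 of the 300 (2.67%), 4 in each direction, against 5.80% of all tested. DESeq2 called 0 of the 300 and 61 of all it tested (0.0999%), and limma-voom called 0 of either. A p that misses the threshold does not show equal ratios. Which way the ratios leaned depended on the scaling of the libraries. In plain CPM 194 of the 300 had the higher ratio at the high temperature, with a median log2 change of 0.11. With TMM scaling (trimmed mean of M values, which aligns the bulk of transcripts between libraries) 125 did, and the median was -0.06. Plain CPM moved the median of all tested transcripts by 0.17 in this contrast and TMM by -0.01, so that the set lay slightly below all transcripts on both scales. The other transcripts of the same level, defined above, had a median of -0.13 with TMM scaling, so the set lay above these. TMM factors were 0.917 to 0.947 in low-temperature hybrids and 0.970 to 1.03 in high-temperature hybrids, and L6 had the highest of all, 1.15. With TMM scaling the median ratios of the same 300 were 0.542 at the low and 0.533 at the high temperature, and 158 were in the window at both.

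The 2 transcripts of smallest p in each direction had the larger temperature difference in Red River fish, although only k50:2885270 and k70:1637321 were called there (edgeR adjusted p = 0.00236 and 0.0218). For k50:2885270 the Red River levels were 46.2, 64.9 and 45.5 CPM in L2, L6 and L9 and 35.8, 21.2 and 27.5 CPM in H1, H4 and H7. The hybrid levels were 17.3, 18.8 and 18.2 CPM in L1, L4 and L7 and 20.3, 19.2 and 21.0 CPM in H2, H6 and H8. The Red River libraries did not overlap between the temperatures, while the hybrid libraries stayed within 4 CPM of each other. Its ratio went from 0.347 to 0.714, with an interaction of 0.86 ± 0.22 (log2, SE; edgeR adjusted p = 0.556). For k58:1838229 the ratio went from 0.396 to 0.765 (0.78 ± 0.31, edgeR adjusted p = 0.819). Its Red River means were 58.7 ± 15.4 and 34.0 ± 6.69 CPM, and its hybrid means 23.3 ± 1.58 and 26.0 ± 5.76 CPM (SD, n = 3 each). In the other direction, k70:1637321 had 15.3, 24.2 and 22.3 CPM in L2, L6 and L9 and 44.5, 46.0 and 41.5 CPM in H1, H4 and H7. In hybrids it had 8.70, 17.5 and 22.2 CPM in L1, L4 and L7 and 19.8, 17.7 and 13.6 CPM in H2, H6 and H8. Its Red River libraries separated by temperature and its hybrid libraries overlapped, and the ratio went from 0.784 to 0.387 (interaction -1.21 ± 0.40, edgeR adjusted p = 0.754). For k86:814915 the ratio went from 0.645 to 0.458 (-0.66 ± 0.24, edgeR adjusted p = 0.781).

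The ratio was also read in libraries that had not chosen the transcripts. When 300 transcripts were taken by the same rule from low-temperature Red River and hybrid libraries alone, with no condition on Delta Select, 124 of them were shared with the set. Their median ratio was 0.516 where they were chosen and 0.572 in the high-temperature libraries, with quartiles of 0.500 and 0.657. There, 158 were in the window, 26 below it and 116 above it, and 4 had a ratio of at least 1. When 300 were taken from the high-temperature libraries, with the condition on Delta Select, 189 were shared with the set. Their median ratio was 0.527 where chosen and 0.513 in the low-temperature libraries, where 192 were in the window, 42 below, 66 above and 5 at 1 or more. Among all 4278 transcripts of the same level, 10.99% were in the window at the high and 11.9% at the low temperature, against 52.7% and 64% of the transcripts chosen at the other temperature. This difference was not tested.

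In edgeR with all 18 libraries, temperature changed a share of the 300 near that of all transcripts tested. This share was below that of the other transcripts of the same level. The rule set the hybrid mean over both temperatures against high-temperature Delta Select libraries alone. Transcripts with large changes that Delta Select fish share can thus be left out by it, so nothing is read from the lower share. How near the shares were depended on the fit. With only Red River and hybrid libraries, 41 of the 300 and 8.29% of all were called in Red River fish. In hybrids 20 of the 300 and 4.35% of all were. In Red River fish 13 rose and 9 fell from the low to the high temperature (edgeR, adjusted p under 0.05), or 22 of 300, where 3.75% of all tested rose and 2.34% fell (6.08% in all). Among the other transcripts of the same level 8.02% rose and 4.35% fell. In hybrids 8 rose and 0 fell, where 1.77% of all tested rose and 1.18% fell (2.95% in all), and 4.50% and 5.08% of the others of the same level. At an unadjusted p under 0.05, 15 were higher and 35 lower in hybrids, which is 16.7% of the set against 14.99% of all tested. At an adjusted p under 0.05 in hybrids, DESeq2 called 13 of the set, 5 of them falls. Over all transcripts it called 5.16% in either direction, with 2018 falls. In limma-voom 8 of the set were called, 0 of them falls, against 2.62% of all in either direction, with 1117 falls. Every one of the 8 that rose in hybrids was also called as a rise in Red River fish. The rule bounds ratios of means and not each change, although its condition on high-temperature Delta Select fish can leave out large changes. It may favour such sharing without requiring it, and nothing is read from it. The median log2 fold change of the set was -0.03 in Red River fish and -0.10 in hybrids, against 0.00 and 0.02 over all tested and 0.03 and -0.09 over the others of the same level.

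The largest rises were in 3 transcripts that were nearly absent at the low temperature. For k86:91142 the Red River levels were 0.110, 0.151 and 0.123 CPM in L2, L6 and L9 and 121, 74.5 and 51.7 CPM in H1, H4 and H7. The hybrid levels were 0.133, 0.0434 and 0.110 CPM in L1, L4 and L7 and 52.8, 40.1 and 7.76 CPM in H2, H6 and H8. All high-temperature libraries were far above all low-temperature libraries, and among hybrids H8 was much lower than H2 and H6. The ratio of summed reads, high to low, was 655 in Red River fish (95% exact counting interval 397 to 1171, on 15 low-temperature reads) and 358 in hybrids (200.02 to 718, on 11). The log2 fold changes were 9.36 ± 0.98 and 8.36 ± 0.98 (SE; edgeR adjusted p = 6.99e-05 and 0.000393). Both k78:1282572, which rose by 9.21 ± 0.97 in Red River fish (log2, edgeR adjusted p = 7.54e-05), and k94:1203125, which rose by 8.20 ± 0.96 in hybrids (log2, edgeR adjusted p = 0.000388), had the same order of libraries within each type at the high temperature, with 11.9 and 8.05 CPM in H8 against 79.5 and 51.1 CPM in H2.

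For these 3 the ratio could be read at the high temperature only. In mean CPM it was between 0.407 and 0.433 there. At the low temperature the ratio of k86:91142 in summed reads was 0.711 with a counting interval of 0.296 to 1.66, on 11 hybrid and 15 Red River reads. Counting intervals cover counting error and not the spread between tanks. The 3 transcripts met the rule through their high-temperature libraries, and none counts among the 171 in the window at both temperatures.

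The other 5 transcripts called as rises in both types were also expressed at the low temperature. They rose by 1.09 to 2.60 in Red River fish and by 1.06 to 2.55 in hybrids on the log2 scale, and all 5 were in the window at both temperatures. For the 4 with the larger rises, Red River means went from between 16.4 and 45.4 CPM to between 82.5 and 225.6 CPM. Hybrid means went from between 7.59 and 20.0 CPM to between 36.3 and 115 CPM. Their ratios ran from 0.441 to 0.510 at the low and from 0.44 to 0.55 at the high temperature. Their high-temperature libraries weigh most in the means that chose them, so the high-temperature ratio was largely set by the rule, and these ratios are a description.

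Rises and falls called in Red River fish alone were small. The rule can leave out larger changes, as stated above, so the size of these calls is a description. The other 5 rises were between 0.61 and 1.17 on the log2 scale, with values in hybrids between -0.04 and 0.58. The 9 falls were between -0.50 and -0.88, with values in hybrids between -0.59 and 0.04. The largest fall was that of k66:1841822, from 60.7, 70.2 and 58.9 CPM in L2, L6 and L9 to 30.8, 34.4 and 33.3 CPM in H1, H4 and H7. In hybrids it had 26.1, 27.5 and 24.8 CPM in L1, L4 and L7 and 20.4, 17.4 and 18.5 CPM in H2, H6 and H8. The libraries of each type separated by temperature, with log2 fold changes of -0.88 ± 0.18 in Red River fish (SE; edgeR adjusted p = 0.00581) and -0.59 ± 0.18 in hybrids (edgeR adjusted p = 0.0963). The next, k66:1229241, went in Red River fish from 49.5 ± 13.1 to 25.9 ± 2.25 CPM (SD, n = 3; log2 fold change -0.85 ± 0.21, SE; edgeR adjusted p = 0.0175). In hybrids it had 22.0 ± 3.40 and 20.9 ± 1.69 CPM. It was not called in Red River fish without H1, H7 or L6 (log2 fold changes -0.76, -0.85 and -0.74). Whether these changes differ between the types was the interaction above, which called none.

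**Figure D4:**
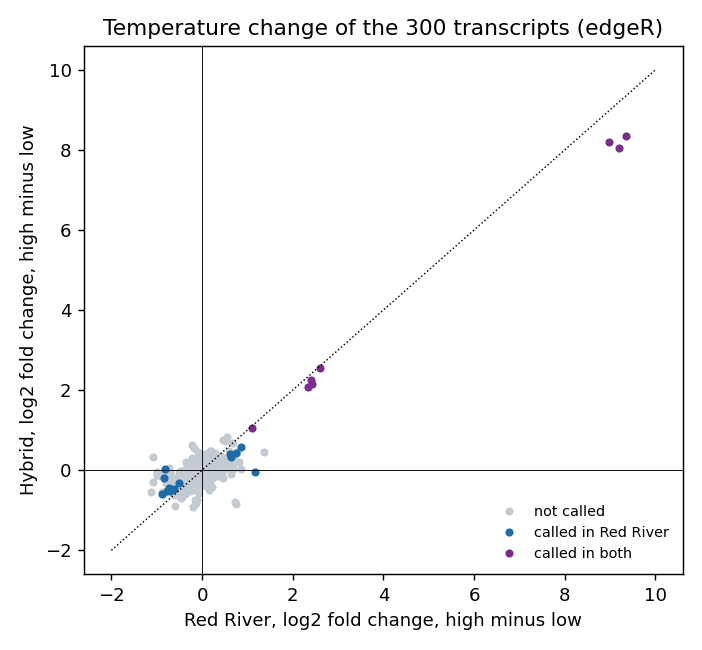
Log2 fold change from the low to the high temperature of each of the 300 transcripts in Red River fish (x axis) and hybrids (y axis), by edgeR with TMM scaling; colours mark calls at an adjusted p under 0.05, and the dotted line marks equal changes. Of the 8 transcripts called in both types, 3 lie at 8 or more on both axes and below the line, and the other 5 lie between 1.06 and 2.60.

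Without L3 and L5 in the fit, 17 of the 300 rose and 21 fell in Red River fish, where 3.72% and 3.40% of all transcripts tested did. In hybrids 9 rose and 10 fell, where 2.01% and 1.66% did. Neither L3 nor L5 is a Red River or hybrid library, but all libraries of a fit share the estimate of spread per transcript. L3 and L5 thus enter the spread behind the main tests of Red River fish and hybrids, the interaction among them. The cause of the larger counts was not tested. The Red River total of 22 was 12 without H7, 13 without H1 and 14 without H4, and the hybrid total of 8 was 17 without L3 alone. The share of all transcripts called moved too, from 6.08% to 3.75%, 4.33% and 3.42% in Red River fish and from 2.95% to 3.48% in hybrids. Leaving out a single low-temperature Delta Select library gave Red River totals of 33 (L3), 24 (L5) and 33 (L8). Of all transcripts, 6.77%, 5.57% and 7.10% were called there. The hybrid totals were 17 (L3), 8 (L5) and 11 (L8), with 3.48%, 2.62% and 3.56% of all transcripts.

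Low-temperature Delta Select fish had no part in the ratio that chose the transcripts, and their libraries differed from each other. On a log2 scale with the Red River mean at 0 and the hybrid mean at 1, the median position of the 300 was 0.70 in L3 (quartiles 0.449 and 0.927), 0.317 in L5 (0.164 and 0.544) and 0.185 in L8 (-0.067 and 0.461). Delta Select libraries of the high temperature lay between -0.05 and 0.00, Red River libraries between -0.12 and 0.08, and hybrid libraries between 0.93 and 1.09. In L3 207 of the 300 exceeded every low-temperature hybrid library and 259 were below every low-temperature Red River library, with 170 in the gap between them. In L5 179 were in the gap, and in L8 118. Within the range of the low-temperature hybrid libraries were 80 in L3, 28 in L5 and 30 in L8. A gap between low-temperature hybrid and Red River libraries was present for 285 of the 300, against 26.7% of all tested transcripts. The choice of the transcripts makes such a gap likely. Shares of all transcripts in the gap were not determined here, and nothing is read from these counts. The position of L8 depended on the scaling, with 0.024 under TMM, where its factor was 0.919, while L3 and L5 were at 0.759 and 0.364. Against L8 alone the low-temperature hybrid level had a median ratio of 0.564, and 152 of the 300 were in the window.

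**Figure D5:**
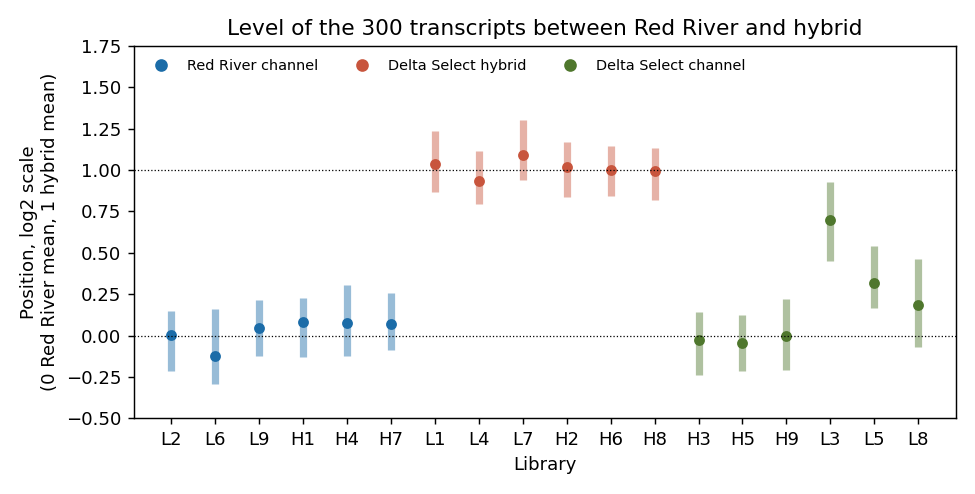
Position of the 300 transcripts in each library on a log2 scale from the Red River mean (0) to the hybrid mean (1); points are medians over the transcripts and bars run between the quartiles. Red River and hybrid libraries lie at 0 and 1 by construction, high-temperature Delta Select libraries near 0, and L3, L5 and L8 at 0.70, 0.317 and 0.185.

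The most abundant transcript shows this order in single values. The level of k70:1577531 was 449 CPM in L3, 582 CPM in L5 and 743.5 CPM in L8, against 701, 757 and 705.0 CPM in H3, H5 and H9. Only L8 was within the Red River range, and L3 and L5 lay in the gap above the hybrids.

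Many of the 300 moved together between tanks, so they are fewer than 300 independent readings. Of 44850 pairs, 62 kept a log2 difference whose SD over the 18 libraries was under 0.1, against a median SD of 0.426 over all pairs. Among transcripts that varied more than the median between tanks, 46 such pairs joined 46 transcripts into 16 linked sets, a set of 9, a set of 8, a set of 3 and 13 pairs. Counting each set once leaves 270, which is an upper limit, since steady pairs among less variable transcripts were not linked. The 3 transcripts nearly absent at the low temperature also stayed unlinked. With each set counted once, the 13 rises called in Red River fish become 12, and the 8 in hybrids become 7. These are upper limits too. The steadiest pair was k70:1617732 and k86:456516, whose ratio to each other stayed between 1.32 and 1.47 in all 18 libraries. The level of k70:1617732 was 215, 94.7 and 169 CPM in L2, L6 and L9 and 109, 68.2 and 99.7 CPM in H1, H4 and H7. That of k86:456516 in the same libraries was 153, 70.1 and 120.5 CPM and 78.7, 51.6 and 72.0 CPM. Both were lowest of all in L8, at 27.1 and 19.5 CPM, below every hybrid library. Whether such identifiers belong to 1 gene was not determined.

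The linked sets of 9 and 8 hold many of the transcripts whose ratio crossed the window. Of the 20 transcripts that went from under 0.4 to over 0.6, 12 belong to them, and the 20 reduce to 9 when each linked set is counted once. The summed level of the set of 9 was 1779, 836 and 1302 CPM in L2, L6 and L9, and 886, 594 and 840.0 CPM in H1, H4 and H7. In hybrids it was 553, 659 and 313 CPM in L1, L4 and L7 and 476, 467 and 582 CPM in H2, H6 and H8. Red River libraries of the low temperature were uneven, with L6 below H1, and the hybrid libraries overlapped between the temperatures. Its median ratio was 0.393 at the low and 0.636 at the high temperature, and no member of either set was called for temperature in Red River fish. Across the 300, the biological coefficient of variation in edgeR had a median of 0.198 for the 171 in the window at both temperatures and 0.241 for the other 129. A transcript with more spread leaves the window more easily at either temperature, so nothing is read from this difference.

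The spread between tanks was somewhat larger in the set than in others of its level. The median biological coefficient of variation was 0.209 for the 300 and 0.181 for the other 3978 transcripts of the same level. Within groups, the median coefficient of variation of CPM was 14.6% in low-temperature and 13.1% in high-temperature Red River libraries, and 14.7% and 12.7% in hybrids. The others of the level had 10.4% and 10.2%, and 10.9% and 10.1%. Choosing on an uncommon ratio in the same libraries can favour transcripts with more spread, so nothing is read from this difference. By level within the set the ratios were alike, which the rule makes likely, and nothing is read from it. The 100 most abundant of the set had median ratios of 0.479 and 0.545 at the low and the high temperature, the middle 100 had 0.493 and 0.530, and the lowest 100 had 0.484 and 0.535.

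By k-mer size, the identifiers of the set differed most from those of other transcripts of the same level at the longest k-mer. These differences were not tested. A k-mer size of 86 was the most common, with 75 of the 300 (25%) against 27.5% of the others. A size of 94 was carried by 44 (14.7%) against 7.49% of the others, and a size of 82 by 37 (12.3%) against 16.3%. Shares over all transcripts were 7.31%, 4.47% and 6.75% for sizes 86, 94 and 82. An identifier ending in u, a mark not explained in the sources used here, was carried by 4 of the 300 (1.33%) and by 2.99% of the others.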

How the data were processed

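The authors deposited raw read counts per assembled transcript, 1 column per library, which is the table used here. Per the labels' protocols, libraries were made with a TruSeq kit from pools of 3 fish and read as single ends of 50 bases. The submitters' processing notes list Bowtie2 2.1.0, DESeq 1.12.1 and R 3.1.0 without a role. For the assembler, the counting and reads that match several transcripts, the method is not given in the sources used here. The row without a transcript name, 24.2% to 25.6% of a library, was left out.

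CPM were computed from the column totals without further scaling, as the rule asks. Tests were made in R 4.3.3 with edgeR 4.0.16 (quasi-likelihood, robust, TMM, 1 mean per group over all 18 libraries) on 96799 transcripts kept by filterByExpr (minimum count 10, minimum total 15), and checked on simulated counts. P-values were adjusted over all of these by the method of Benjamini and Hochberg. Alternatives used DESeq2 1.42.0, limma-voom (limma 3.58.1), other scalings, filters and libraries. The library codes number tanks within a temperature, so no pairing was made. Replicates are tank pools.

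Of the identifiers, 0 matched the RefSeq table of 32344 channel catfish genes. Named transcripts are the 2 most abundant, at most 2 rises and 2 falls per test, and the steadiest pair. The members, lists and limits, among them the SD of 0.1 for linked pairs, were chosen with earlier results of these data known.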

Additional observations from a re-analysis of the deposited data

How the results depend on the processing

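The calls of temperature in the set moved with the tool and with the libraries fitted. In Red River fish the 22 calls became 35 in DESeq2, 41 with only Red River and hybrid libraries and 38 without L3 and L5, and 12 to 33 when single libraries were left out. Of all transcripts, 6.08% were called there, and 8.55%, 8.29% and 7.12% under these 3 alternatives. In hybrids the 8 calls became 13, 20 and 19 under the same alternatives, and 7 to 17 when single libraries were left out. Of all transcripts, 2.95% were called in hybrids, and 5.16%, 4.35% and 3.67% under these alternatives. The interaction called 0 of the 300 under each of the 24 alternatives run. When the 300 were chosen again, the number at 0.4 to 0.6 at both temperatures, 171, became 144 to 188 under other scalings, conditions and libraries. It was 245 when the rule used a window of 0.45 to 0.55 and 125 with 0.35 to 0.65. A narrower or wider choice shifts this number by construction. Choosing again gave 104 of the same 300 with a window of 0.45 to 0.55, 168 with 0.35 to 0.65 and 165 with the Red River condition alone, and at least 249 without any single library. The median high-temperature ratio of transcripts chosen at the low temperature, 0.572, was 0.526 with TMM scaling and 0.593 with medians of libraries, and 0.561 to 0.589 without single libraries. The reverse, 0.513, was 0.56 with TMM scaling and 0.496 to 0.531 without single libraries. The position of L8, 0.185, was 0.024 with TMM scaling. The cause of these shifts was not tested. The named rises kept their direction and their calls under all 24 alternatives. Groups of 3 tank pools limit what the interaction can detect.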
